A study of Mus musculus with 27 samples.

Results

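Acute phase genes change quickly during inflammation and injury and mostly encode plasma proteins, and the 10 of them described here are *Saa1*, *Saa2*, *Saa3*, *Orm1*, *Orm2*, *Apcs*, *Hp*, *Hpx*, *Lcn2* and *Steap4*. They were chosen by gene symbol among the 36333 genes of the table, and all 10 were found in it. The samples were taken from male *Mlx*KO mice, from the liver, the omental (abdominal) fat and from skeletal muscle, and RNA-seq was performed on each. Every tissue had 4 samples at 5 months and 5 at 20 months, 27 in all. The ages are those of the sample descriptions, whereas the names of all older samples carry the number 18 (X18L16, for example). The study's list of mice also gives an age of 18 months for the mice whose last digits match these names. The exact age of the older groups is therefore uncertain, and they are called 20 months here as in the descriptions. All mice carried *Mlx* alleles flanked by LoxP sites together with a tamoxifen-activated Cre recombinase (CreER) expressed from the ROSA26 locus, and all of them were given 5 daily injections of tamoxifen (75 mg/kg in corn oil) around weaning, once they weighed at least 15 g. The deletion was therefore aimed at the whole body and was given to both ages, and by the study's own assay of the *Mlx* transcript it was less complete in skeletal muscle than in liver. WT samples were not analysed here, so that a change with age cannot be assigned to the deletion. The 4 mice at 5 months gave all 3 tissues under shared numbers, and their samples are called by their names here, such as X5L5001, X5F5001 and X5S5001 for liver, adipose tissue and muscle of the same mouse. They are listed in the order X5L4299, X5L5001, X5L5238 and X5L5239, and the older samples, which are numbered separately for each tissue, in the order of their numbers.

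In the liver, the acute phase response is driven mainly by interleukin-6 and related cytokines, which act through the gp130 receptor and the transcription factor STAT3, and by interleukin-1 and tumor necrosis factor, which act through NF-kB and C/EBP factors. Its products bind and clear lipids, hemoglobin, heme and iron or coat microbes and cell debris. Hepatocytes supply most of the circulating amount, and adipocytes, macrophages and neutrophils make some of the same proteins locally.

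Samples held between 14384695 and 25673919 reads on genes. The values are reads per gene scaled to the sample, and 3 reads, taken as the detection limit, corresponded to a value between 0.0703 and 0.242 depending on the sample. *Mlx* itself gave values between 18.8 and 32.4 in liver, 8.19 and 13.9 in adipose tissue and 7.04 and 11.6 in skeletal muscle. These are levels of the whole gene, and the LoxP sites flank only some of its exons, so they do not measure the deletion. Each tissue carried its own defining markers, as the lowest summed value of 7 hepatocyte genes in liver was 49561 and that of 6 muscle fibre genes in muscle was 129513. The lowest sum of 6 adipocyte genes in adipose tissue was 8616. Some adipose and muscle samples also carried hepatocyte transcripts, which are given beside the genes they moved with. In bulk tissue, fewer cells of a type and less RNA per cell cannot be told apart.

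The serum amyloid A genes encode small apolipoproteins of high-density lipoprotein. *Saa1* and *Saa2* are the liver-type genes and *Saa3* is also made by adipocytes and macrophages. All 3 lie on chromosome 7 in GRCm38.p6, *Saa3* at 46711998 to 46719615 and *Saa1* at 46740497 to 46743181 on the minus strand, and *Saa2* at 46751833 to 46754313 on the plus strand. *Saa1* and *Saa2* are close copies, so that the split of reads between them is uncertain. Of the 50-base stretches of *Saa1* exons, 31.5% were found also in other genes, most often in *Saa2*. The promoters are shown because the resemblance of *Saa1* and *Saa2* extends to them. The sequences are from RefSeq (GRCm38.p6), run from 250 bases before to 50 bases after the annotated start and read 5′ to 3′ on the strand of the gene, and capitals mark letters that match any of 4 short motifs on either strand: TTNNGNAA for C/EBP factors, GGGNNNNNCC for NF-kB, TTCNNNGAA for STAT factors and TATAAA for the TATA box. Matches to different motifs may overlap. The windows are chr7:46742931-46743230 on the minus strand for *Saa1*, chr7:46751583-46751882 on the plus strand for *Saa2* and chr7:46715627-46715926 on the minus strand for *Saa3*. For *Saa1* and *Saa3* the start used for the window lies inside the gene span given above, and not at its outer end.

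*Saa1*: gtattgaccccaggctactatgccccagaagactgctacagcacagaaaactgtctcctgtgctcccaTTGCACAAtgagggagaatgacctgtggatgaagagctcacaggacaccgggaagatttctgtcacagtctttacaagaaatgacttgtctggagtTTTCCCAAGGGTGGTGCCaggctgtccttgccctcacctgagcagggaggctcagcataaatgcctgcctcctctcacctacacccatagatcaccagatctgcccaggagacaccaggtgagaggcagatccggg
*Saa2*: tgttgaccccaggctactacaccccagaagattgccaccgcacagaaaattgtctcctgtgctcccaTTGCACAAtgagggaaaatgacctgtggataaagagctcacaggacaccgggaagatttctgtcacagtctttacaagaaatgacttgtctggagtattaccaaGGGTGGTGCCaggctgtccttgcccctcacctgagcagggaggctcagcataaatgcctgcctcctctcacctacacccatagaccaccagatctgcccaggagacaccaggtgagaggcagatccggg
*Saa3*: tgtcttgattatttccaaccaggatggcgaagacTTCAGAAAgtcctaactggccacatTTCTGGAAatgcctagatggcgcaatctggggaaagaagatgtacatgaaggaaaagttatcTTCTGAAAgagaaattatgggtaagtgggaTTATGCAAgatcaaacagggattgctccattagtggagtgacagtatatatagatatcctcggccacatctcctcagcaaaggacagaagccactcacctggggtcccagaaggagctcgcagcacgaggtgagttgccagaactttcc

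Aligned to each other, the *Saa1* and *Saa2* promoters shared 287 identical bases of 301, with 12 mismatches and 2 gaps, whereas *Saa1* and *Saa3* were identical at 50.9% of aligned positions. The C/EBP letters occurred in both liver-type promoters and at 4 places in *Saa3*, and the NF-kB letters occurred in *Saa1* and *Saa2* but not in this window of *Saa3*. Neither motif is rare, since 40.7% of 32851 promoter windows of the same length held the C/EBP letters and 50.8% held the NF-kB letters. Among the 8 of the 10 genes with a promoter in the table, 7 held the C/EBP letters and 4 the NF-kB letters. The STAT letters were found in 2 of the 8, *Apcs* and *Steap4*, against 8.30% of all windows.

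Between 5 and 20 months, some of the acute phase genes rose in the liver, unevenly between mice. Of the 10 genes, 4 were past the threshold (limma, adjusted p under 0.05) and all 4 were higher at 20 months, whereas 10% of the 12654 genes tested in liver were higher and 9.79% lower. The genes past the threshold were *Orm2*, *Saa3*, *Saa2* and *Steap4*. All 10 had a higher fitted value at 20 months, with a median log2 change of 1.73 against 0.0011 over all genes tested. Changes are differences of log2(value + 1), so that changes of weakly expressed genes are understated.

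*Saa1* in liver gave 102, 12.4, 185 and 43.7 at 5 months and 56.2, 206, 426, 420.4 and 598 at 20 months. Of the 5 older livers, 4 lay above all younger ones and mouse 16, at 56.2, lay within their range. The log2 change of 2.18 ± 0.79 (SE) did not pass the threshold (limma, adjusted p = 0.0730).

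*Saa2* in liver gave 17.2, 2.62, 28.9 and 11.996 at 5 months and 24.8, 57.7, 120.3, 91.3 and 81.7 at 20 months, again with 4 older livers above all younger ones and mouse 16 below the highest of them. Its log2 change was 2.42 ± 0.58 (SE), or 5.34-fold (limma, adjusted p = 0.0190). The change of *Saa2* was also past the threshold in each of the 10 other analyses tried, with adjusted p from 0.000188 to 0.0394, and with each sample left out except mouse 18, without which the adjusted p was 0.0535.

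*Saa3* in liver gave 8.15, 2.69, 4.35 and 5.60 at 5 months and 10.4, 15.2, 136, 16.5 and 236 at 20 months. It was the only one of the 10 genes in liver whose ages did not overlap. Of all genes tested in liver, 8.46% had ages that did not overlap, with higher values at 20 months. Mice 18 and 74 stood far above the other older mice, at 136 and 236 against 10.4 to 16.5. The fitted log2 change was 2.77 ± 0.83 (SE), or 6.84-fold (limma, adjusted p = 0.0401). Leaving out 1 sample at a time gave log2 changes from 2.13 to 3.23 and kept the call in 4 of 9 cases.

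The orosomucoids are lipocalin-type glycoproteins of plasma that bind lipids and drugs. *Orm1* and *Orm2* are neighbours on chromosome 4, at 63344556 to 63348163 and 63362449 to 63365877 on the plus strand. Of the 50-base stretches of *Orm1* exons, 20.4% were found also in other genes, most often in *Orm2*, so some of their reads may be exchanged. The promoter of *Orm2* (RefSeq, GRCm38.p6, chr4:63362199-63362498, plus strand, capitals as above) is shown because this gene had the largest log2 change of the 10 in liver. It carried 2 C/EBP matches close to each other and a TATA box.

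*Orm2*: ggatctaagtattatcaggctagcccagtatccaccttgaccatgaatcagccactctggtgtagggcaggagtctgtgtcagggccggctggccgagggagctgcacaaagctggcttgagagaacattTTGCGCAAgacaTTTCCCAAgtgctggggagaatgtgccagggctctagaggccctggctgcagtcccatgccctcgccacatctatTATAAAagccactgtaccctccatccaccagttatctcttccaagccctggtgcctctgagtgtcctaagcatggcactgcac

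*Orm1* was abundant in every liver and gave 441, 247, 614 and 421 at 5 months and 312, 719, 923, 1010 and 856 at 20 months. Again 4 older livers lay above all younger ones, and the log2 change of 0.79 ± 0.35 (SE) did not pass the threshold (limma, adjusted p = 0.123).

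*Orm2* in liver gave 17.2, 6.84, 24.7 and 14.5 at 5 months and 15.98, 217, 339, 131 and 341 at 20 months. The livers of 4 older mice were at least 131 and all younger livers at most 24.7, and mouse 16 sat among the younger ones at 15.98. The log2 change was 3.20 ± 0.77 (SE), or 9.17-fold (limma, adjusted p = 0.0198). In the 10 other analyses of *Orm2* the adjusted p ran from 3.614e-05 to 0.0405, and it was 0.0541 without mouse 18 and 0.0624 without mouse X5L5001.

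*Apcs* (chromosome 1, 172893961 to 172895054, minus strand) encodes serum amyloid P component, a pentraxin that is a main acute phase protein of the mouse. In liver it gave 43.5, 21.7, 63.3 and 40.9 at 5 months and 41.4, 63.0, 106, 124 and 142 at 20 months. Only 3 older livers lay above the younger range, and the log2 change of 1.11 ± 0.37 (SE) fell short of the threshold (limma, adjusted p = 0.0574).

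Haptoglobin (*Hp*, chromosome 8, 109575128 to 109579172) binds free hemoglobin and hemopexin (*Hpx*, chromosome 7, 105591611 to 105600116) binds free heme, and both are abundant plasma proteins. Expressed per kilobase of exon, they were the top 2 of the 10 genes in liver at both ages, with *Hp* at 4507 ± 696 (SD, n = 4) and *Hpx* at 3076 ± 785 (SD, n = 4) at 5 months.

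*Hp* in liver gave 7881, 8169, 7240 and 5666 at 5 months and 4346, 6565, 10554, 9353 and 11837 at 20 months. The older livers spanned a range on either side of the younger one, and the log2 change was 0.16 ± 0.33 (SE) with a 95% interval from −0.57 to 0.89 (limma, adjusted p = 0.751). The interval excludes a log2 rise of the size fitted for *Saa2*, *Saa3* or *Orm2*.

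*Hpx* in liver gave 6263, 4347, 4358 and 3473 at 5 months and 3744, 7138, 9880, 7849 and 13714 at 20 months. Here 4 older livers exceeded all younger ones, yet the log2 change of 0.79 ± 0.36 (SE) was not past the threshold (limma, adjusted p = 0.139).

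*Lcn2* (chromosome 2, 32384637 to 32387739, minus strand) encodes lipocalin-2, which captures bacterial siderophores and so withholds iron, and is made by neutrophils as well as by inflamed hepatocytes and adipocytes. Its promoter (RefSeq, GRCm38.p6, chr2:32387690-32387989, minus strand, capitals as above) is shown because *Lcn2* had the widest ratio of highest to lowest older liver of the 10 genes.

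*Lcn2*: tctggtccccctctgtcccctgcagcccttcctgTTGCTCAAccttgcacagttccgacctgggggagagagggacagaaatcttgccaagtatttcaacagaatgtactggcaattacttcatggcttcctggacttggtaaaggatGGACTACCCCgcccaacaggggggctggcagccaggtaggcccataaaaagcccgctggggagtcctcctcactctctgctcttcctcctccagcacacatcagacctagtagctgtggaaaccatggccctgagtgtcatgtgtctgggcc

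*Lcn2* in liver gave 31.1, 11.4, 26.7 and 8.56 at 5 months and 10.7, 111, 460.1, 184 and 903 at 20 months. Mouse 74 was highest and mouse 16, at 10.7, was within the younger range, whereas the other 4 older livers lay above it. Its log2 change was 3.14 ± 1.01 (SE) and lay at the threshold (limma, adjusted p = 0.0502). In the other analyses of *Lcn2* in liver the adjusted p ran from 0.000534 to 0.0946, and 5 of these 10 called it higher.

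*Steap4* (chromosome 5, 7960472 to 7982213, plus strand) encodes a membrane metalloreductase that reduces iron and copper ions and is induced by inflammatory cytokines in fat and liver. It is the only one of the 10 genes whose product is not secreted, and its promoter (RefSeq, GRCm38.p6, chr5:7960222-7960521, plus strand, capitals as above) is shown because it held matches to all 4 motifs, the C/EBP and NF-kB letters overlapping at 1 place.

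*Steap4*: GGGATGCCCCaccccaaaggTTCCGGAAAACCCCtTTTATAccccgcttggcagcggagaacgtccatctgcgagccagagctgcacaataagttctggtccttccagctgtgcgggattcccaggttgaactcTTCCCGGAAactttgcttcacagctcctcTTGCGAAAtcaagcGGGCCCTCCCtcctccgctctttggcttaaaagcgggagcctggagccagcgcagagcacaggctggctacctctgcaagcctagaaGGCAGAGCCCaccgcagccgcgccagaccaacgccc

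*Steap4* in liver gave 56.4, 64.7, 51.5 and 45.2 at 5 months and 46.7, 132, 182, 129.8 and 276 at 20 months. All younger livers lay between 45.2 and 64.7, and 4 older livers between 129.8 and 276. The fitted log2 change was 1.28 ± 0.39 (SE), or 2.43-fold (limma, adjusted p = 0.0429). With 1 sample left out at a time, *Steap4* was past the threshold only without mouse 16, and the adjusted p ran from 0.0013 to 0.104.

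**Figure D1:**
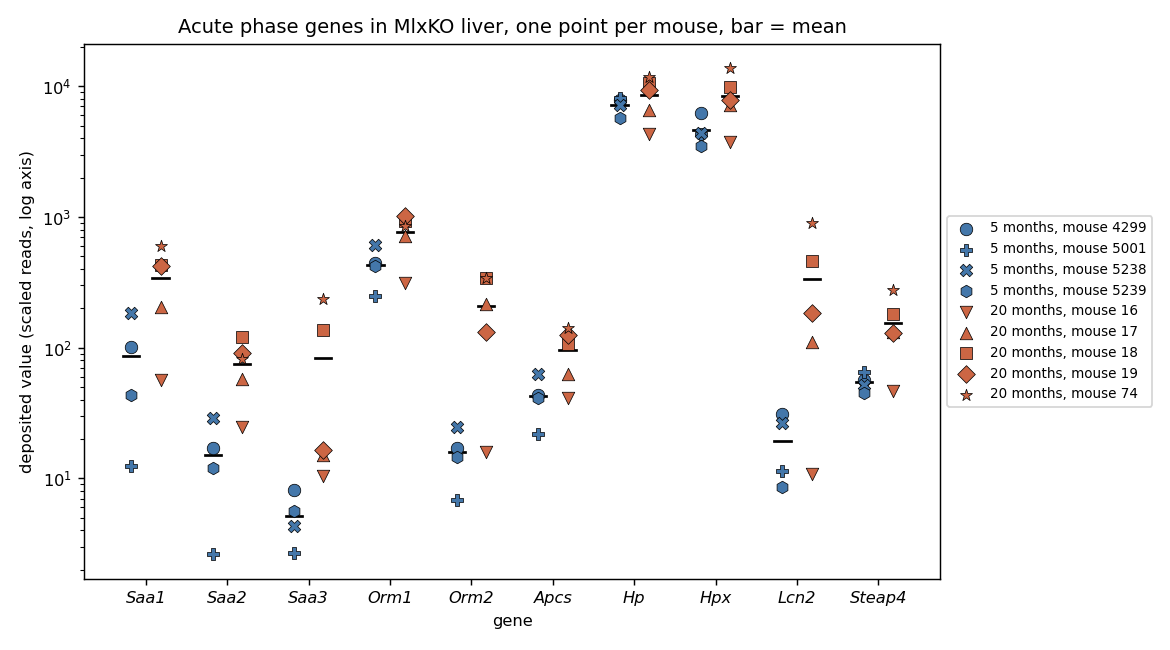
Deposited value (scaled reads, log axis) of each acute phase gene in *Mlx*KO liver, with 1 symbol per mouse, blue for the 4 mice at 5 months and orange for the 5 at 20 months, and a bar at the mean. Mouse 16 (downward triangle) is the lowest older liver for all 10 genes and mouse 74 (star) the highest for 8 of them.

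The rank of the older livers was shared by the genes. Mouse 16 had the lowest value of the 5 for all 10 genes. Mouse 74 had the highest for 8 of the 10, with mouse 18 highest for *Saa2* and mouse 19 highest for *Orm1*, and mouse 18 was among the top 2 for 9. The genes share each library, so this order is a description of these 5 livers. The number of genes past the threshold moved with single samples: it was 9 without mouse 16, 0 without mouse 18, 1 without mouse X5L5001, 2 without mouse X5L4299 and 2 without mouse X5L5239, and 3 in the other 4 cases. Calls over all genes tested in liver, 2508 in the main analysis, moved as well. They were 3557 without mouse 16, 959 without mouse 18 and 980 without mouse X5L5001. Without mouse X5L4299 they were 1351, and without mouse X5L5239 they were 1618. The count among the 10 genes was 8 with DESeq2 and 5 with edgeR on the recovered reads, where 3463 and 2578 of all genes were called. It was 6 of 10 when values were rescaled without the 20 most abundant genes, which moved the median log2 change of all genes to 0.16 and their calls to 2129 higher and 472 lower, against 1269 and 1239.

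Markers of other cells differed between these livers too, where 10% of all genes tested were higher at 20 months and 9.79% lower. The summed value of 7 macrophage genes was 212 to 333 at 5 months and 249, 611, 727, 513 and 837 at 20 months in mice 16, 17, 18, 19 and 74, and 3 of the 7 genes were higher at 20 months (limma, adjusted p from 0.0164 to 0.0264). The macrophage gene *Mrc1* had a negative estimate (log2 change −0.51, limma, adjusted p = 0.0781). Mouse 16, lowest for the acute phase genes, was also lowest of the older livers for the macrophage sum, but not for every marker sum. All 4 B cell genes were higher at 20 months, with sums of 1.24 to 6.48 at 5 months and 6.63 to 14.03 at 20 months. The 9 neutrophil genes summed to 2.96 to 5.66 at 5 months and 4.31 to 28.95 at 20 months, with the defining genes partly at 0, and 0 of the 2 that could be tested passed. The hepatocyte sum was 110720 to 173438 at 5 months and 49561 to 101666 at 20 months, lowest in mouse 74, and 2 of 7 hepatocyte genes, *Cps1* and *Tat*, were lower. Of 5 erythroid genes 4 were higher, and their sums of 664 to 842 at 5 months and 953 to 1257 at 20 months did not overlap, with mouse 16 again lowest of the older livers. The mesothelial gene *Wt1* and the T cell gene *Cd8a* were also higher (log2 changes 1.12 and 1.17). Among the older livers the neutrophil sum was lowest in mouse 17, the B cell sum in mouse 18 and the T cell sum in mouse 19. Mouse 16 had the highest mesothelial (25.6) and adipocyte (209) sums of the older livers. The part of these cells in the changes of the acute phase genes was not tested.

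**Figure D2:**
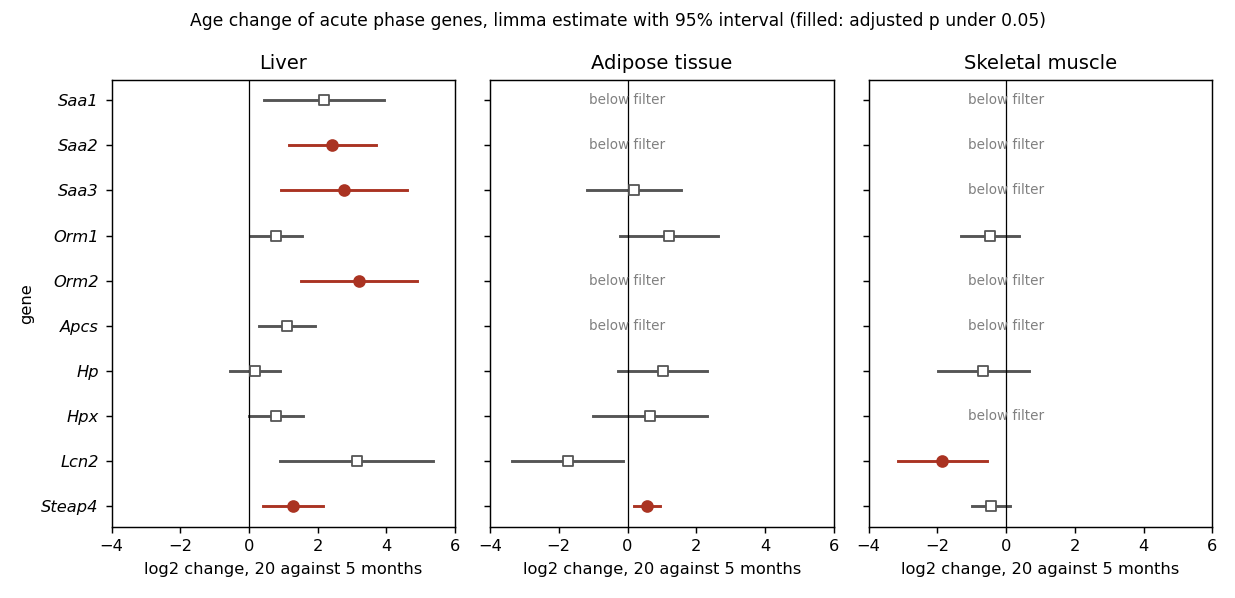
Log2 change of each acute phase gene from 5 to 20 months in the 3 tissues on the log2(value + 1) scale, as limma estimates with 95% intervals; filled circles passed adjusted p under 0.05, open squares did not, and genes below the filter on low values were not tested. In liver all 10 estimates are above 0 and 4 passed, while *Steap4* passed in adipose tissue and *Lcn2*, lower at 20 months, in skeletal muscle.

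In adipose tissue, 6 of the 10 genes passed the filter on low values, with 5 positive estimates and a negative one for *Lcn2*. Only 1 of the 6, *Steap4*, was higher at 20 months, where 9.75% of the 14005 genes tested were higher and 9.35% lower. The genes that were not tested were *Saa1*, *Saa2*, *Orm2* and *Apcs*.

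*Steap4* in adipose tissue gave 91.8, 90.0, 119 and 118 at 5 months and 112, 186, 139, 178 and 162 at 20 months. Of the older samples, 4 lay above all younger ones, and mouse 36 at 112 lay between the younger values. The log2 change was 0.56 ± 0.17 (SE), or 1.47-fold (limma, adjusted p = 0.0478). The adjusted p was 0.0523 without the variance trend, 0.0745 without a filter on low values and 0.189 when all 27 samples were fitted together, and leaving out 1 sample at a time kept the call in 3 of 9 cases, with adjusted p from 0.0153 to 0.130. The call was lost without mouse 37, 38, 39, 40, X5F4299 or X5F5001.

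*Lcn2* in adipose tissue gave 53.6, 84.2, 15.8 and 92.9 at 5 months and 48.7, 10.5, 6.19, 35.3 and 5.11 at 20 months. In 3 older samples it was lower than in any younger one, and mice 36 and 39 lay within the younger range. Its log2 change was −1.74 ± 0.73 (SE), opposite in sign to that in liver, and was not past the threshold (limma, adjusted p = 0.106). Without mouse 36 or without mouse X5F5238 this change was past it, the smaller adjusted p being 0.0420.

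*Hp* in adipose tissue gave 389.9, 225, 1048 and 1222 at 5 months and 536, 2226, 1610, 1569 and 744 at 20 months, so that fat held more of this transcript than any muscle sample. The ages overlapped and the log2 change was 1.02 ± 0.58 (SE; limma, adjusted p = 0.209).

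*Orm1* in adipose tissue gave 27.2, 3.77, 52.7 and 52.6 at 5 months and 55.9, 82.5, 44.4, 41.6 and 67.0 at 20 months, with mouse X5F5001 far below the rest. The fitted log2 change was 1.20 ± 0.64 (SE; limma, adjusted p = 0.182). *Saa3* gave 8.87, 1.29, 7.76 and 13.97 at 5 months and 3.48, 14.8, 16.7, 3.16 and 6.96 at 20 months, with overlapping ages and a log2 change of 0.18 ± 0.61 (SE; limma, adjusted p = 0.837).

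*Orm2* was low in adipose tissue, and near the detection limit in the younger samples, with 0.0957, 0, 0.332 and 0.407 at 5 months and 0.678, 1.44, 1.75, 0.75 and 1.11 at 20 months. These are 0 to 14 reads in younger and 23 to 59 reads in older samples, and the ages did not overlap. Of all genes tested in this tissue, 8.30% had ages that did not overlap, with higher values at 20 months. *Orm2* was below the filter and so is not among the genes this share covers. Without a filter its log2 change was 0.82 ± 0.17 (SE; limma, adjusted p = 0.0339). *Saa1*, *Saa2* and *Apcs* stayed at or below 0.535 in every adipose sample.

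*Hpx* in adipose tissue gave 0.702, 0.333, 2.72 and 1.72 at 5 months and 10.1, 0.389, 11.4, 0.586 and 0.597 at 20 months. Mice 36 and 38 held 10.1 and 11.4 and the other 7 samples at most 2.72. The log2 change was 0.65 ± 0.74 (SE; limma, adjusted p = 0.520). The sum of the 7 hepatocyte markers was 248 in mouse 36 and 141 in mouse 38, against 4.15 to 60.2 in the other adipose samples. The part of hepatocyte RNA in the *Hpx* values was not tested. Without mice 36 and 38, a comparison added after seeing the data, *Steap4* remained the only one of the 10 genes past the threshold.

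In skeletal muscle most of these genes had low values. Of the 4 genes that passed the filter, 1 was past the threshold, *Lcn2*, and it was lower at 20 months, against 10.1% of 12720 genes tested that were lower and 9.13% that were higher.

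*Lcn2* in muscle gave 14.4, 18.9, 2.19 and 5.50 at 5 months and 0.913, 2.33, 0.651, 6.84 and 0.143 at 20 months. Mouse 59 at 6.84 and mouse 57 at 2.33 lay within the younger range and the other 3 older samples below it. Its log2 change was −1.85 ± 0.60 (SE), or 3.60-fold lower (limma, adjusted p = 0.0492). The call was lost in 7 of 11 other analyses, edgeR (adjusted p = 0.0716) and DESeq2 (adjusted p = 0.0866) among them, and in 7 of 9 cases with 1 sample left out. It stood only without mouse 59 or mouse X5S5238, the lowest adjusted p being 0.0127. The summed value of 9 neutrophil genes was 35.8, 40.6, 3.68 and 63.6 in the younger muscles and 0.713 to 2.75 in the older ones, except for 125 in mouse 59, which also had the highest *Lcn2* of the older mice. The part of neutrophil RNA in the *Lcn2* values was not tested.

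*Steap4* in muscle gave 66.2, 114, 39.5 and 41.7 at 5 months and 39.9, 42.9, 41.4, 51.3 and 41.8 at 20 months. The older samples were tightly grouped, and mice X5S4299 and X5S5001 stood above all of them. The fitted log2 change was −0.45 ± 0.25 (SE; limma, adjusted p = 0.218). *Hp* gave 9.45, 27.97, 43.8 and 19.4 at 5 months and 7.17, 31.4, 23.9, 25.1 and 2.71 at 20 months, with a log2 change of −0.66 ± 0.61 (SE; limma, adjusted p = 0.452). *Orm1* gave 0.845, 0.726, 4.70 and 1.11 at 5 months and 0.13, 1.53, 1.16, 0.147 and 1.71 at 20 months, with a log2 change of −0.46 ± 0.39 (SE; limma, adjusted p = 0.404).

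*Hpx* in muscle gave 0.0768, 0.806, 16.05 and 1.39 at 5 months and 0.0652, 0.399, 6.29, 0.147 and 0 at 20 months and was below the filter. Mouse X5S5238 at 16.05 and mouse 58 at 6.29 stood apart, and these were also the muscles with the highest sum of hepatocyte markers of their age, 345 and 67.2, against 1.38 to 41.9 and 0.143 to 5.37 in the others. Mouse X5S5238 had the highest *Orm1* and *Hp* of the muscle samples as well. The part of hepatocyte RNA in these values was not tested. *Saa1* reached 1.93 in the younger and 0.289 in the older muscles, and *Saa2*, *Saa3*, *Orm2* and *Apcs* stayed at or below 0.579. Without mice 58 and X5S5238, a comparison added after seeing the data, *Lcn2* was still the only one of the 10 genes past the threshold.

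**Figure D3:**
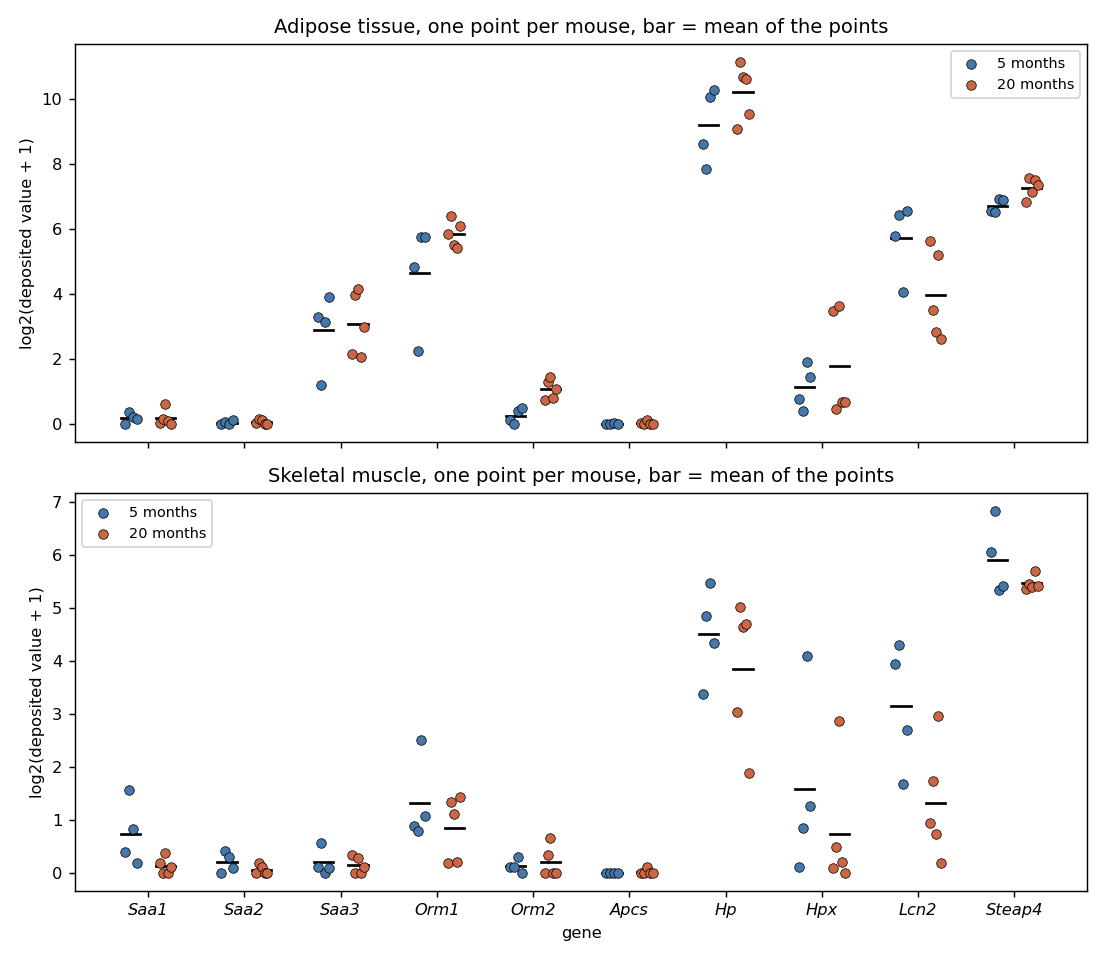
Log2(deposited value + 1) of each acute phase gene in adipose tissue (top) and skeletal muscle (bottom), with 1 point per mouse, blue at 5 months and orange at 20 months, and a bar at the mean of the points. *Saa1*, *Saa2* and *Apcs* sit near 0 in both tissues, *Orm2* in adipose tissue separates the ages at 0 to 0.407 against 0.678 to 1.75 in deposited value, and *Lcn2* is spread widely within each age.

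**Figure D4:**
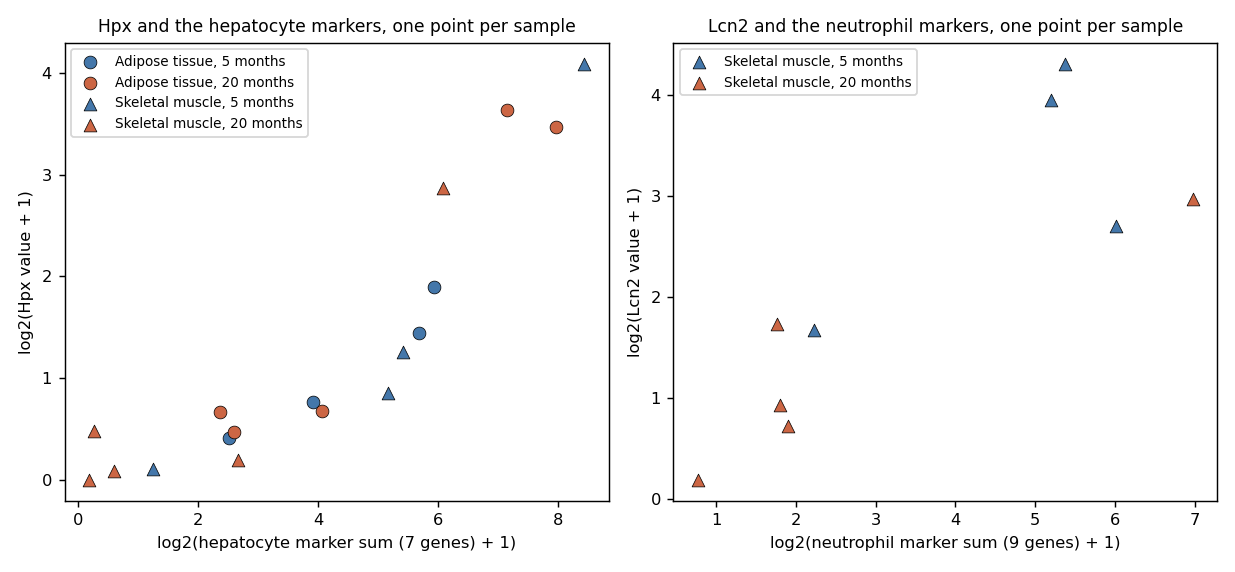
Left, *Hpx* against the summed value of 7 hepatocyte genes in each adipose (circles) and muscle (triangles) sample; right, *Lcn2* against the summed value of 9 neutrophil genes in each muscle sample, all as log2(value + 1) and colored by age. The samples with the highest *Hpx* (16.05, 11.4, 10.1 and 6.29) are those with hepatocyte sums of 345, 141, 248 and 67.2.

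Whether the age change itself differed between tissues was tested over all 27 samples, with 1 variance per gene pooled over the 3 tissues. For genes near 0 outside liver the pooled variance understates the spread between livers, so that their SE and p-values are too small. Against muscle, the SE was 0.753 for *Orm2* and 0.788 for *Saa1*, below the 0.769 and 0.793 of the change in liver alone. In this fit *Saa1*, *Saa2*, *Orm2* and *Apcs* passed the filter on low values only through their liver values and were at or below 1.93 in every other sample, so that their differences largely restate the change in liver and depend on the pseudocount. Between liver and adipose tissue, 4 of the 10 genes differed, each with the more positive change in liver, where 8.59% of the 15572 genes tested did so in this direction, but 3 of the 4 were of this kind. The other was *Lcn2*, with a difference of log2 changes of 4.88 ± 1.28 (SE; limma, adjusted p = 0.0119). The differences of the 3 were 2.39 ± 0.55 for *Saa2*, 2.38 ± 0.75 for *Orm2* and 1.09 ± 0.36 for *Apcs* (SE; limma, adjusted p from 0.0053 to 0.0435). Between liver and skeletal muscle, 7 of the 10 differed in the same direction, against 9.35% of all genes, and 4 of the 7 were of this kind, with differences from 1.09 to 2.79 and, for *Orm2*, 3.13. The other 3 were *Lcn2* with 4.99 ± 1.28, *Saa3* with 2.82 ± 0.96 and *Steap4* with 1.73 ± 0.46 (SE; limma, adjusted p from 0.0097 to 0.0426), of which *Saa3* was at or below 0.484 in every muscle. Between adipose tissue and muscle, 0 of 10 differed by limma at an adjusted p under 0.05, against 14.7% of all genes, 3 had an unadjusted p under 0.05 and edgeR called 0.

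The difference in *Lcn2* between liver and adipose tissue combined a positive estimate in liver with a negative one in adipose tissue, neither of them past the threshold alone. For *Orm2* against adipose tissue the difference was 1.07 with a pseudocount of 0.1 (limma, adjusted p = 0.522). By edgeR, the genes called were *Lcn2*, *Saa1* and *Steap4* for liver against muscle, 3 in number, and 2 of 10 for liver against adipose tissue. The calls of *Lcn2* and *Saa2* against adipose tissue, and of *Lcn2*, *Saa1*, *Saa2*, *Orm2* and *Steap4* against muscle, were kept in each of 18 cases with 1 sample left out, whereas *Apcs* kept its call in 4 of 18 in both comparisons and *Saa3* in 4 of 18. For *Saa1*, *Saa2* and *Orm2* the kept calls add little, because these genes were near 0 outside liver and the variance was pooled. In liver alone, *Saa1* was past the threshold in 2 of 9 such cases, *Saa2* in 8 of 9 and *Orm2* in 7 of 9.

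The order of the tissues was not the same for all genes. *Hp* was at 7239 ± 1118 (SD, n = 4) in liver, 721 ± 488 in adipose tissue and 25.1 ± 14.5 in muscle at 5 months, a difference of 3.63 log2 units between liver and adipose tissue and 4.66 between adipose tissue and muscle (limma, adjusted p = 6.986e-06 and 1.877e-07). *Orm1* had the same order, at 431 ± 150 (SD, n = 4) in liver, 34.1 ± 23.5 in adipose tissue and 1.85 ± 1.91 in muscle. *Hpx* was at 4610 ± 1177 (SD, n = 4) in liver, and adipose tissue and muscle, at 1.37 ± 1.08 and 4.58 ± 7.66, did not differ beyond their spread (adjusted p = 0.614). *Saa1*, *Saa2*, *Orm2* and *Apcs* were higher in liver than in either other tissue at both ages. Their differences on the log2(value + 1) scale were 3.46 to 7.91, sizes that the pseudocount limits, since these genes were at or near 0 outside liver. They passed the filter on low values only through liver, so that the direction of these differences was largely fixed by the filter.

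*Steap4*, *Lcn2* and *Saa3* departed from that order. At 5 months *Steap4* was highest in adipose tissue, at 105 ± 16.1 (SD, n = 4) against 54.4 ± 8.23 in liver, or 0.93 log2 units lower in liver (limma, adjusted p = 0.0161), and liver and muscle, at 65.3 ± 34.5, did not differ beyond their spread (adjusted p = 0.739). At 20 months *Steap4* was at 154 ± 84.2 (SD, n = 5) in liver and 156 ± 30.1 in adipose tissue, with a difference of −0.21 and a 95% interval from −0.84 to 0.42 (adjusted p = 0.548). *Lcn2* at 5 months was at 19.5 ± 11.1 in liver and 61.6 ± 34.9 in adipose tissue (SD, n = 4; difference −1.53, limma adjusted p = 0.149), and at 20 months at 334 ± 359 and 21.2 ± 19.7 (SD, n = 5; difference 3.35, adjusted p = 0.00105). *Saa3* went from 5.20 ± 2.30 in liver and 7.97 ± 5.21 in adipose tissue at 5 months (SD, n = 4; difference −0.33, limma adjusted p = 0.687) to 82.8 ± 101 and 9.002 ± 6.33 at 20 months (SD, n = 5; difference 2.26, adjusted p = 0.00259).

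Most genes differ between tissues, and the counts among the 10 are given against that background. Liver differed from adipose tissue in 8 genes at 5 months, of which *Steap4* was lower in liver, and in 9 at 20 months, where 76.4% and 74.5% of all genes differed. Liver exceeded muscle in 8 genes at 5 months and in 10 at 20 months, as did 36% and 39.2% of all genes. The counts against liver include *Saa1*, *Saa2*, *Orm2* and *Apcs*. These passed the filter on low values only through liver, so that their being higher there was largely fixed by the filter. Adipose tissue exceeded muscle in 5 at each age, against 41.9% and 42.1% of all genes, namely *Hp*, *Orm1*, *Saa3*, *Lcn2* and *Steap4*. At 5 months this last count was 3 without X5S5238 and 3 without X5F5239. Rescaling without the 20 most abundant genes moved the median of all genes for liver against adipose tissue from −0.072 to −0.85 log2 units at 5 months. At 20 months it moved from −0.061 to −0.68. Under this rescaling *Steap4* was lower in liver at both ages, by 0.97 log2 units at 20 months (limma, adjusted p = 0.0080), and *Lcn2* was lower in liver at 5 months (adjusted p = 0.0241).

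Per kilobase of exon, the order of the 10 genes within liver changed with age. The length used was the union of all annotated exons of a gene, which can hold bases that most of its transcripts lack. It was 2518 bases for *Saa2*, about the whole gene span given above, and 775 for *Orm2*. The places of the genes relative to each other therefore depend on this choice of length. *Hpx* and *Hp* exchanged the top 2 places, with overlapping ranges at 20 months, when *Hpx* was at 5647 ± 2451 and *Hp* at 5312 ± 1896 (SD, n = 5). *Orm2* went from 20.4 ± 9.499 (SD, n = 4) to 269 ± 180 (SD, n = 5) and from the sixth to the fourth place, and *Lcn2* went from 7.42 ± 4.25 to 127 ± 137 and from the eighth to the sixth. *Apcs* went from 43.6 ± 17.5 to 98.3 ± 43.4, and from the fourth place to the seventh. At 20 months the ranges of *Orm2*, *Saa1*, *Lcn2* and *Apcs* overlapped, so that their order does not exceed the spread between mice.

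The upstream genes of the acute phase response are given by list, and the lists were not compared between tissues. In liver, 3 of 9 cytokine genes were expressed enough to be tested and 1 was higher, *Il1b*, an inducer of the response, from 2.98 ± 1.5 to 6.04 ± 1.7 (SD, n = 4 and 5; log2 change 0.86, limma, adjusted p = 0.0392). *Il6*, named after its values were seen because it leads the response, was at or below 0.320 in every liver. Of 9 receptor genes, 1 was lower, *Il6st*, which encodes gp130, the shared signaling chain of the interleukin-6 family (−0.49, adjusted p = 0.0209). Of 18 signal transducers, 2 were higher and 1 lower. *Nfkbiz*, a nuclear cofactor of NF-kB needed for *Lcn2* induction, rose by 1.32 (adjusted p = 0.0119), from 5.36 to 7.84 in the younger livers to 11.8 to 33.7 in the older ones. *Socs1*, a feedback inhibitor of JAK kinases, rose by 0.65 from a low level (adjusted p = 0.0362), and *Jak1*, one of those kinases, fell by 0.39 (adjusted p = 0.0407).

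Of 20 other positive acute phase genes tested, 0 were higher by limma and 1, *Hamp*, which encodes the iron hormone hepcidin, was lower, from 1171 to 1980 at 5 months to 265 to 749 at 20 months (−1.73, adjusted p = 0.0077). The median log2 change of these 20 was −0.13. Named after their values were seen, *Orm3* and *Saa4*, relatives of members of the 10, had the most positive estimates, 1.48 and 0.74 (limma, adjusted p = 0.0963 and 0.0880), and the fibrinogen genes *Fga*, *Fgb* and *Fgg* had estimates of −0.44, −0.43 and −0.43 (adjusted p from 0.276 to 0.302). Of 11 negative acute phase genes, whose products fall during inflammation, 0 were past the threshold, and the median was −0.053. Of 13 tested genes for receptors and partners of the 10 products, *Fcgr1*, an Fc receptor of macrophages, was higher (1.40, adjusted p = 0.0226).

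In adipose tissue, 9.75% of the 14005 genes tested were higher at 20 months and 9.35% lower. Of 5 cytokine genes tested there, *Il1rn*, the interleukin-1 receptor antagonist, was higher (2.09, limma, adjusted p = 0.0195), at 1.48 to 2.50 in younger and 3.80 to 20.4 in older samples. Of 9 receptors, *Il10rb*, a chain of the interleukin-10 and interleukin-22 receptors, was higher (1.04, adjusted p = 0.0160) and *Osmr*, the oncostatin M receptor, lower (−0.65, adjusted p = 0.0302). Of 18 transducers, *Tyk2* was higher (0.62, adjusted p = 0.0336) and *Stat3* and *Cebpd* lower (−0.96 and −1.09, adjusted p = 0.0138 and 0.0399). Of 17 other positive acute phase genes tested, 0 were higher and 3 lower: *Serpina3m*, *Agt* and *Cp* (−2.03, −1.63 and −0.98). Of 11 partner and receptor genes tested, *Steap3*, a relative of *Steap4*, was higher (0.96, adjusted p = 0.0239), and *Steap2*, another relative, and *Cd163*, the macrophage receptor for haptoglobin bound to hemoglobin, were lower (−1.74 and −1.79). Of 9 negative acute phase genes tested, 0 were past the threshold by limma. Immune cell markers rose in this tissue too, with 4 of 4 B cell genes and 2 of 7 macrophage genes higher and macrophage sums of 749 to 1703 at 5 months and 1127 to 5513 at 20 months, and their part was not tested.

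In skeletal muscle, all list genes that were past the threshold were lower at 20 months, where 10.1% of the 12720 genes tested were lower and 9.13% higher. Of 9 receptor genes 5 were lower, led by *Il6ra*, the interleukin-6 receptor, from 70.9 ± 39 to 13.9 ± 5.4 (SD, n = 4 and 5; log2 change −2.17, limma, adjusted p = 0.0039), with *Tnfrsf1b* at −0.80 and *Il1r1* at −0.79. Of 15 transducers 7 were lower, led by *Cebpd* (−2.78, adjusted p = 0.0025), *Socs3* (−1.97, adjusted p = 0.0286) and *Cebpb* (−1.38, adjusted p = 0.000833), of which *Cebpd* ranged from 101 to 403 in younger and 14.5 to 39.2 in older muscles. Of 11 other positive acute phase genes 6 were lower, led by *Serpina3n* (−2.27, adjusted p = 0.0143), *C3* (−1.21, adjusted p = 0.0031) and *Agt* (−1.18, adjusted p = 0.0134). Of 9 negative acute phase genes 2 were lower, *Pon1* (−1.15) and *Igf1* (−1.04), and of 9 partner and receptor genes 3 were lower, *Hmox1*, the heme oxygenase (−1.96), *Cd163* (−1.35) and *Lrp1*, the receptor for heme bound to hemopexin (−0.86). Macrophage genes were lower at 20 months as well, in 3 of 7 cases, with sums of 137 to 218 at 5 months and 78.7 to 155 at 20 months. The hepatocyte sums were 1.38 to 345 at 5 months and 0.143 to 67.2 at 20 months. The neutrophil sums were 3.68 to 63.6 at 5 months and 0.713 to 125 at 20 months. The part of these cells in the changes of the list genes was not tested.

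**Figure D5:**
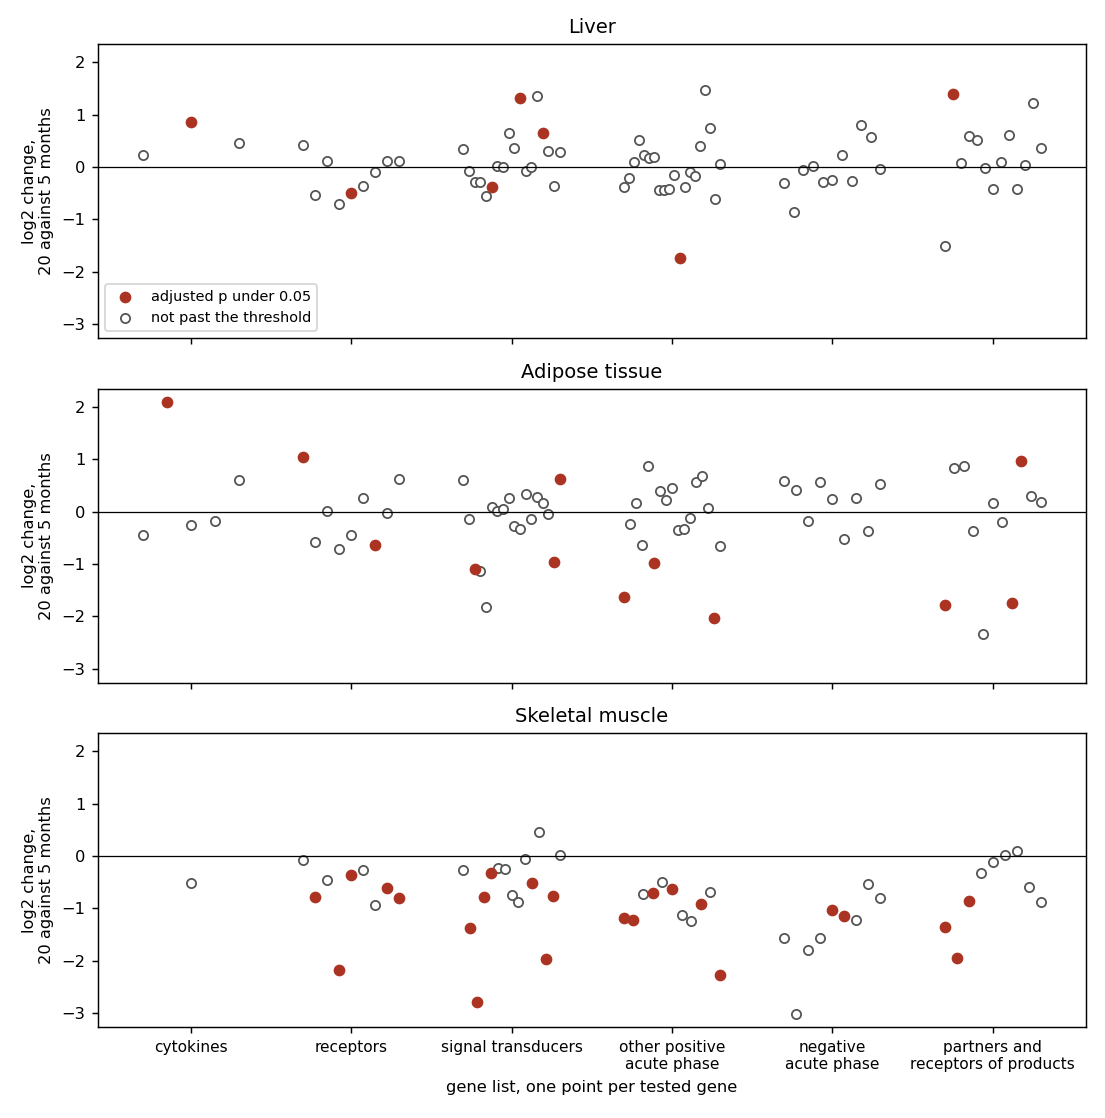
Log2 change from 5 to 20 months on the log2(value + 1) scale of each tested gene of 6 lists in liver, adipose tissue and skeletal muscle, with 1 point per gene; filled red points passed adjusted p under 0.05 and open points did not. In muscle all 23 points past the threshold lie below 0, whereas liver and adipose tissue have points past it on both sides.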

How the data were processed

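RNA had been purified from liver, omental adipose tissue and skeletal muscle and poly(A)-selected, strand-specific libraries had been sequenced. The authors mapped reads and computed expression in CLC Genomics Workbench. The deposited values are a signal, which is the CPM (reads per gene scaled to library size) divided by a further factor for each sample, by the authors. GRCm38.p6 is named in the submitters' processing notes, and which annotation the workbench used is not given in the sources used here. Dividing by the smallest step of each sample gave whole reads for 100% of values (tolerance 0.001), and reads per gene were recovered in that way.

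The 10 genes and the pathway and marker lists were chosen with earlier results of these data known. All 10 genes were described, and of each list up to 3 genes with the largest rise and up to 3 with the largest fall among those past the threshold were named in each tissue. Values were tested as log2(value + 1) with limma 3.58.1 (R 4.3.3) with a variance trend, on genes reaching a value of 1 in 4 or more samples. Age was tested within each tissue, and differences between tissues and between age changes over all 27 samples. P-values were adjusted over all genes tested (Benjamini-Hochberg), and the threshold was 0.05. EdgeR 4.0.16 and DESeq2 1.42.0 were run on the recovered reads as alternatives, beside other pseudocounts, filters and scalings and leaving out samples. Tests were checked on simulated data, drawn with the same relative spread between replicates for every gene and tissue. The check does not cover wider spreads, such as that of *Lcn2* in the older livers at 334 ± 359 (SD, n = 5). P-values of the age comparisons within a tissue measure the spread between these mice. Those of the 27-sample comparisons rest on 1 variance per gene pooled over the 3 tissues. Their main fit treated tissues of the same mouse as independent. Replicates of a group differed by more than counting noise, with chi-square per degree of freedom from 9.81 to 217.5 over 48 pairs. By their numbers, the 4 mice at 5 months gave all 3 tissues, whose deviations from the group means correlated at −0.017 to 0.29 (mean 0.14) over 12 pairs of tissues. The study's list of mice gives the older tissues different mouse numbers, whose last digits match the sample names. Comparisons between tissues share samples.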

Additional observations from a re-analysis of the deposited data

Results flagged for a closer look

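In 42 groups of 4 or 5 samples, 1 sample stood apart in 4 by Dixon's criterion, which chance does in about 1 of 20 groups. In skeletal muscle at 5 months, X5S5238 held *Orm1* at 4.70 against 0.726 to 1.11 in the others and *Hpx* at 16.05 against 0.0768 to 1.39. In muscle at 20 months, mouse 58 held *Hpx* at 6.29 against 0 to 0.399, and mouse 59 held *Steap4* at 51.3 against 39.9 to 42.9.

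The change with age differed between tissues by a test of the difference itself for 4 genes between liver and adipose tissue. The differences of log2 changes were 4.88 for *Lcn2*, 2.39 for *Saa2*, 2.38 for *Orm2* and 1.09 for *Apcs*. Between liver and skeletal muscle they were 4.99 for *Lcn2*, 3.13 for *Orm2*, 2.82 for *Saa3*, 2.79 for *Saa1*, 2.56 for *Saa2*, 1.73 for *Steap4* and 1.09 for *Apcs*. *Saa1*, *Saa2*, *Orm2* and *Apcs* passed the filter on low values only through liver, so that their differences largely restate the change in liver and depend on the pseudocount.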

How the results depend on the processing

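Of the 10 genes, 4 were past the threshold in liver, and 2 were without a filter on low values, 7 with all 27 samples in one fit, 8 with DESeq2 and 0 to 9 with 1 sample left out. In adipose tissue 1 was, and 0 without the variance trend or with all 27 samples in one fit, and 0 to 2 with 1 sample left out. In muscle 1 was, and 0 with a pseudocount of 0.1, no filter, median-of-ratios factors, no variance trend, all 27 samples, edgeR or DESeq2, and 0 to 1 with 1 sample left out. For the difference between liver and adipose tissue 4 were, and 2 with a pseudocount of 0.1 or 0.5, no filter or edgeR, and 2 to 7 with 1 sample left out. Against muscle 7 were, and 3 with edgeR and 5 to 7 with 1 sample left out. Adipose tissue exceeded muscle at 5 months in 5 genes, and in 3 to 5 with 1 sample left out. The cause was not tested. The change of *Saa3* in adipose tissue reversed to −0.05 without mouse 37, −0.09 without mouse 38 and −0.38 without X5F5001, with values of −0.38 to 0.52 over all samples left out, and the difference of *Apcs* between liver and muscle to −0.57 with edgeR.

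With the mouse number as a replicate block (estimated correlation 0.10), no count of the 10 genes changed; the difference in *Lcn2* between liver and adipose tissue then had an adjusted p of 0.0091. Over all genes, the age comparison in adipose tissue called 2674, against 5270 with all 27 samples, 4348 with DESeq2 and 1525 without a filter, and in muscle 2451 against 1507 without a filter. Of 382 values of single genes in the age comparisons under another setting, 318 kept their direction and side of the threshold, 42 lost the call, 19 gained it and 3 reversed. Depth limited the genes near 0 outside liver, where 3 reads correspond to up to 0.242.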
